A study of Mus musculus with 32 samples.

Results

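The genes that write and erase methyl groups on histone lysines were followed through the conversion of mouse pluripotent cells into primordial germ cell-like cells (PGCLCs), the cultured counterparts of the embryo's first germ cells. With earlier results of these data known, a set was drawn up by gene name. It was a list of 36 symbols of methyltransferases, PRC2 subunits and demethylases. Of these, 32 had a probe set on the array, among 18193 genes with one, and 31 were tested, among 15497 genes tested. Kdm4a was measured but not tested, since its highest group mean, a log2 level of 2.73, lay below the filter level of 4.05. Ash1l had no probe set carrying its symbol alone. Setd8, Suv420h1 and Suv420h2 are listed on the platform under the newer symbols Kmt5a, Kmt5b and Kmt5c, and are described separately.

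RNA was amplified by global PCR and hybridised to Affymetrix arrays, 32 in all, with 2 biological duplicates in each of 16 groups. All 22 newly made arrays came from male cells of mixed C57BL/6 and 129 background that carry a Blimp1-mVenus and a stella-ECFP reporter and the Rosa26-rtTA activator. The parental clone carries nothing further. It gave epiblast-like cells (EpiLCs) after 36 h, cytokine-induced PGCLCs (Ck-PGCLCs) on days 2 and 4, and a negative control aggregated for 2 days with doxycycline (Dox) but no factor. The BP14A line adds doxycycline-driven transgenes for Blimp1, Prdm14 and Tfap2c in piggyBac vectors, the BP14 line those for Blimp1 and Prdm14, the P14A line those for Prdm14 and Tfap2c, and the P14 line that for Prdm14. These lines gave transcription factor-induced PGCLCs (TF-PGCLCs) on day 2, and BP14A also on day 4, after aggregation of 36 h EpiLCs with Dox. Ck-PGCLCs were induced with BMP4, BMP8A, SCF, EGF and LIF. BP14A embryonic stem cells (ESCs) were grown in 2i+LIF, and a further group was the same line after 2 days of Dox, sorted for stella-ECFP. The other 10 arrays came from an earlier series on a C57BL/6 background: male 2i+LIF ESCs, EpiLCs at 48 h and Ck-PGCLCs at day 6, all with Blimp1-mVenus and stella-ECFP, epiblast of embryonic day 5.5 with no named transgene, and PGCs of embryonic day 9.5 with stella-EGFP. The sex of both embryo groups was unknown. No number of clones is named for any line. Separate cultures are not named for the duplicates either, and the p-values therefore reflect array-to-array spread, part of which may be technical.

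Methyl groups on histone H3 lysines mark active or silent chromatin according to the residue. Methylation of H3K4 marks promoters and enhancers in use, H3K36 and H3K79 methylation follow transcription, and H3K9 and H3K27 methylation go with silencing. In the mouse, newly specified PGCs are known to lose bulk H3K9 dimethylation and to gain H3K27 trimethylation, so the H3K9 enzymes and PRC2, which writes H3K27 methylation, are the members most studied in this lineage.

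Over the 17 comparisons between groups, 12 of the 31 members changed at least once and 19 in none, where a change means at least 2-fold with a Benjamini-Hochberg adjusted p under 0.05 in limma. The 58 changes, 36 higher and 22 lower, were 11% of 527 member tests, against 12.3% of the tests of all genes, so the set as a whole was near the background. The 12 members were 38.7% of those tested, where 45.5% of all genes changed at least once, and the 9 members with at least 4 changes were 29%, against 22.6% of all genes. Setd7 had 10, Kdm3a 9, Jarid2 and Kmt2c 6 each, Smyd2 and Kdm3b 5 each, Ehmt1, Suz12 and Kdm4c 4 each, Kdm5b 3, and Kdm2b and Kdm6b 1 each. The catalytic PRC2 subunit Ezh2 and the H3K9 methyltransferase Ehmt2 were in none of them. The map of the 31 tested members gives each group mean relative to the gene's own mean.

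**Figure D1:**
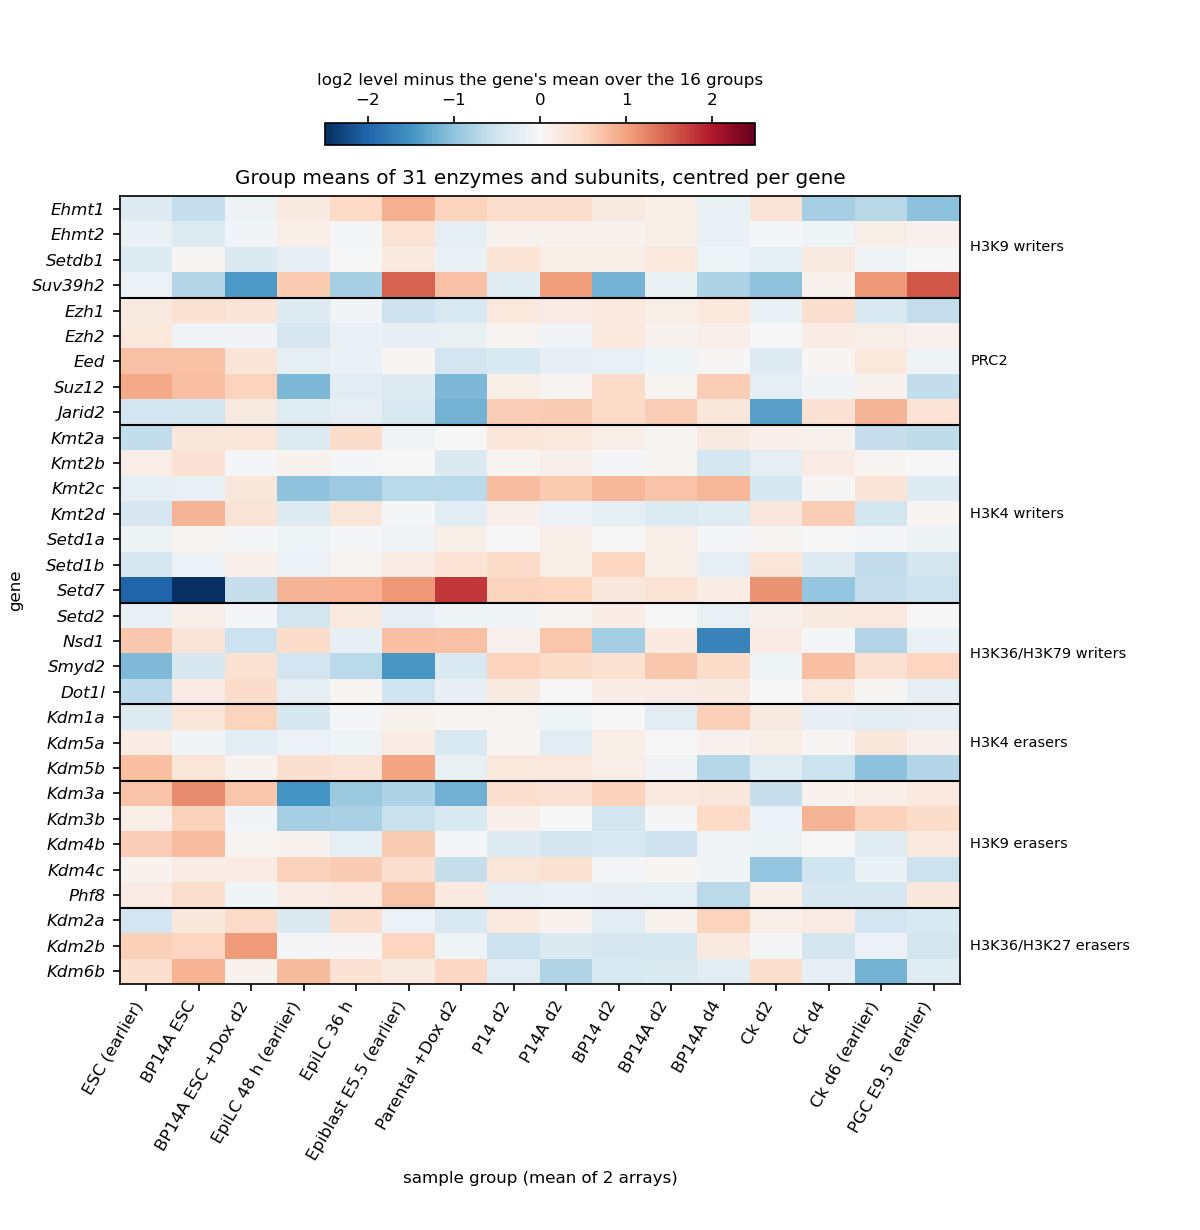
Each row is a tested member and each column a group; colour gives the group's mean log2 level over 2 arrays, centred per gene, and ends at 2.5 either way. Setd7 spans from a group mean of 5.63 in BP14A ESCs to 10.32 in the Dox-treated parental clone, while the Ezh2 and Ehmt2 group means each lie within 0.68.

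Marker lists were checked against the labels. The 7 naive ESC markers summed to log2 levels of 13.99 to 14.16 in 2i+LIF ESCs. They summed to 13.09 to 13.32 in the TF-PGCLCs and the day 4 and day 6 Ck-PGCLCs, and to 12.65 and 12.48 in embryo PGCs. EpiLCs, epiblast and the parental control had 8.74 to 11.01 for these and 13.12 to 14.23 for 6 epiblast markers. The 4 neural markers spanned 8.34 to 11.32. The 4 fibroblast markers were highest in embryo PGCs, at 9.3 and 8.51, against at most 8.42 elsewhere. The 7 measured PGC markers had summed log2 levels of 13.58 to 14.82 in the TF-PGCLCs, the day 4 and day 6 Ck-PGCLCs and the embryo PGCs. Dppa3 (stella), the gene of a reporter, was the brightest of them in each TF-PGCLC group. The PGC list also names Prdm1 (Blimp1), Prdm14 and Tfap2c, the genes of the transgenes. Its sum is therefore not an independent check of the factor lines. Day 2 Ck-PGCLCs, at 11.55 and 11.72, were below the 2i+LIF ESCs, at 12.29 to 13.02. They also had the highest summed level of 5 trophoblast markers, 10.01 and 10.15 against at most 8.82 elsewhere. Of 8 streak and mesoderm markers 7 were measured, and their summed log2 level was 12 and 11.75 in the Dox-treated parental clone and 12.44 and 12.67 in day 2 Ck-PGCLCs, against 6.12 to 9.04 elsewhere. The 6 endoderm markers summed to 10.25 and 10.75 in the parental clone and to 10.2 and 8.29 in the epiblast. The 6 blood and endothelial markers summed to 13.85 and 12.75 in embryo PGCs and to at most 10.57 elsewhere, led by Hba-x. Whether such cells contributed to any member's value was not tested. In these bulk samples fewer cells of a type and less RNA per cell cannot be told apart. On 6 arrays the 5′ Gapdh signal lay more than 2.5 below the 3′ signal on the log2 scale, a sign of short cDNA: both day 4 BP14A arrays and 1 array each of day 2 BP14, 36 h EpiLCs, BP14A ESCs and ESCs with Dox.

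The sequences just upstream of the start sites of 4 members that moved in different groups are shown because their changes set the routes apart or recur in culture and embryo. They are the 250 bases before the most upstream listed start, from RefSeq on GRCm38.p6, 5′ to 3′ on the gene's strand. Capitals mark a match on either strand to the AP-2 letters GCCNNNGGC, the Blimp1 core GAAAGT or the hypoxia response core ACGTG, and the matches shown do not overlap.
Setd7, chr3:51560824-51561073, minus strand: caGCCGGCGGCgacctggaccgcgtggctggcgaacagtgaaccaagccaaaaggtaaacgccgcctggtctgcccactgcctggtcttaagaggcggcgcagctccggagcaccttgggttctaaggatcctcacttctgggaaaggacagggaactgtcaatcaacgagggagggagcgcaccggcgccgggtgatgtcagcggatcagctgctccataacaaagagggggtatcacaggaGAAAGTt
Kdm3a, chr6:71632918-71633167, minus strand: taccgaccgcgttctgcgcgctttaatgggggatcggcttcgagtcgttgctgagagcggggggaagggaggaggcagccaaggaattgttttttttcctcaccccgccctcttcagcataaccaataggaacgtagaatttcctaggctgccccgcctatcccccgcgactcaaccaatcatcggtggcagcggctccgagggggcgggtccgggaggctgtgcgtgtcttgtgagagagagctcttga
Ehmt1, chr2:24919610-24919859, minus strand: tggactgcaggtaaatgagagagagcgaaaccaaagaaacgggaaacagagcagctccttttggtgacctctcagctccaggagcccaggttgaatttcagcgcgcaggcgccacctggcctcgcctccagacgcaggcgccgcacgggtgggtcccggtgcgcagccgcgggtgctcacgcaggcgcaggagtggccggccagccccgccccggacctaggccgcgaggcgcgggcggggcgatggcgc
Jarid2, chr13:44730524-44730773, plus strand: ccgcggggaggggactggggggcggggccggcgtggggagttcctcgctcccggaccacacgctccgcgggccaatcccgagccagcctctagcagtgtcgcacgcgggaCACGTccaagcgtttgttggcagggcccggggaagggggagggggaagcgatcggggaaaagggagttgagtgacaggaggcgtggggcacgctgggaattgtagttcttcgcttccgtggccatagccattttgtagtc
The 4 windows are richer in GC than the median gene's 52%, with 60.4% in Setd7, 59.6% in Kdm3a, 69.2% in Ehmt1 and 67.2% in Jarid2. They hold 17, 20, 26 and 23 CpG dinucleotides, where the median over all genes is 6. Setd7 holds 1 AP-2 match at its upstream end and 1 Blimp1 match next to the start, Jarid2 holds 1 hypoxia core, and Kdm3a and Ehmt1 hold none of these letters. Sequence was at hand for 24 of the 36 members. Among these, 5 had AP-2 letters, 5 the Blimp1 core and 6 the hypoxia core, against 13.5%, 12.4% and 16.5% of 27018 genes. The Prdm14 letters GGTCTCTAA were in 0 of the 24 and in 0.241% of all genes. A match is a description of the letters and not a binding site.

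Exit from the naive state changed 4 of 31 members in the new arrays, where 36 h EpiLCs were compared with BP14A ESCs. Ehmt1 and Setd7 were higher, against 7.17% of all tested genes, and Kdm3a and Kdm3b lower, against 7.45%. The EpiLCs came from the parental clone and the ESCs from the BP14A line, so line and state cannot be told apart there. In the earlier arrays, 48 h EpiLCs against ESCs gave 3 changes: Setd7 higher (7.26% of all genes) and Suz12 and Kdm3a lower (7.09%). Setd7 and Kdm3a thus changed in both comparisons, which share no array. They were 50% of the 4 and 66.7% of the 3 members called, where all genes shared 63.4% and 64.5%. The test of the difference between both steps called 0 of 31 members (0.355% of all genes higher and 0.561% lower in limma), with 3 members and 11.4% of all genes at an unadjusted p under 0.05.

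Aggregation without factors or cytokines changed 1 tested member at the 2-fold limit. In the Dox-treated parental clone against 36 h EpiLCs, Kdm4c was the single member called, lower, where 7.23% of all genes were higher and 5.63% lower. Jarid2 (-0.93), Setd7 (0.88) and Kdm2a (-0.77) passed the adjusted p there at less than 2-fold, and Kmt5b, described below, fell. Day 2 of the cytokine route gave 2 members lower, Jarid2 and Kdm4c, and none higher, against 6.06% lower and 8.42% higher over all genes. By day 4 the cytokine route had 6 members changed against EpiLCs: Smyd2, Kdm3a and Kdm3b higher (9% of all genes) and Ehmt1, Setd7 and Kdm4c lower (7.4%). Between days 2 and 4 Jarid2 rose (5.68%) while Ehmt1 and Setd7 fell (6.84%).

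The BP14A line had most of its changes from EpiLCs by day 2. The 36 h EpiLC, control and Ck-PGCLC arrays all came from the parental clone. Line and factors therefore cannot be told apart where factor lines are compared with these groups, the comparisons of routes included. BP14A cells on day 2 had Kmt2c, Smyd2 and Kdm3a higher than EpiLCs (6.25% of all genes) and none lower (5.36%). On day 4 they had Kmt2c, Smyd2, Kdm3a and Kdm3b higher (8.12%) and Kdm5b lower (5.9%). Between both days 0 of 31 members were called, where 0.936% of all genes were higher and 0.497% lower in limma. At an unadjusted p under 0.05 there were 8 members and 14.6% of all genes. Against the parental control at day 2, BP14A cells had 5 members higher, namely Suz12, Jarid2, Kmt2c, Smyd2 and Kdm3a (6.63%), and Setd7 lower (7.25%). The P14 line, with Prdm14 alone, had 4 higher, Suz12, Jarid2, Kmt2c and Kdm3a (6.34%), and Setd7 lower (6.6%). Both of these comparisons use the same control arrays, and the values of each are given side by side below.

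The routes differed in 3 members on day 2, with Jarid2, Kmt2c and Kdm4c higher in BP14A cells than in Ck-PGCLCs (5.55% of all genes higher, 7.01% lower). On day 4 they differed in Setd7 alone, higher in BP14A cells (3.39% higher, 2.74% lower). The sorted BP14A ESCs with Dox had Setd7 higher than BP14A ESCs, and no other of the 31 members was called (5.51% higher, 3.9% lower). No ESCs of the parental clone with Dox were measured. Factors, Dox, sorting and time in culture thus cannot be told apart in that comparison. Day 6 Ck-PGCLCs against 48 h EpiLCs had 8 changes: Suz12, Jarid2, Kmt2c, Kdm3a and Kdm3b higher (9.26%) and Setd7, Kdm5b and Kdm6b lower (9.38%). In the embryo, PGCs against epiblast had 7: Smyd2, Kdm3a and Kdm3b higher (8.9%) and Ehmt1, Setd7, Kdm5b and Kdm2b lower (6.9%). Day 6 Ck-PGCLCs and embryo PGCs differed in 0 of 31 members in limma (3.9% of all genes higher, 3.46% lower), with 5 members and 22.7% of all genes at an unadjusted p under 0.05.

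Among the H3K9 writers only Ehmt1 was called in any comparison. Ehmt1, also called GLP, pairs with Ehmt2, G9a, to make mono- and dimethyl H3K9. Its log2 level was 10.2 and 10.39 in 36 h EpiLCs, 10.25 and 10.02 in day 2 Ck-PGCLCs, and 9.08 and 8.88 in day 4 Ck-PGCLCs. The day 4 arrays lay below all arrays of both other groups. The log2 change from EpiLCs was -1.32 (SE 0.24, 2.49-fold, adjusted p 0.000253), and from day 2 it was -1.15 (SE 0.24, adjusted p 0.00126). In the embryo Ehmt1 stood at 10.53 and 10.85 in epiblast and at 8.69 and 8.87 in PGCs, a log2 change of -1.91 (SE 0.24, 3.75-fold, adjusted p 4.2e-06). With the factors the difference stayed under 2-fold. BP14A cells stood at 10.12 and 9.83 on day 2 and 9.39 and 9.87 on day 4, where the log2 change from EpiLCs was -0.67 (SE 0.24, adjusted p 0.0459). Day 6 Ck-PGCLCs, at 8.8 and 9.43 against 9.85 and 10.2 in 48 h EpiLCs, gave -0.91 (SE 0.24, adjusted p 0.00581), also under 2-fold. Neither the difference between routes on day 4 (log2 change 0.65, SE 0.24) nor the interaction below called Ehmt1.

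Ehmt1 was also higher in 36 h EpiLCs than in BP14A ESCs, which read 9.05 and 9.37 (log2 change 1.08, SE 0.24, adjusted p 0.0018). This change was near the limit. It was 0.99 without the second EpiLC array, 0.93 without the first ESC array and 1.02 with an adjusted p of 0.0555 without the arrays of low Gapdh difference. Its partner Ehmt2 moved little, with group means from 10.45 in BP14A ESCs to 11.13 in epiblast and a log2 change of -0.07 between day 4 Ck-PGCLCs and EpiLCs and of -0.22 between embryo PGCs and epiblast. Setdb1, which trimethylates H3K9 at retroviral repeats, ranged over 0.69 and was called nowhere. Suv39h2, a writer of H3K9 trimethylation at pericentromeric repeats, varied within groups, reading 4.51 and 7.37 in 36 h EpiLCs and 4.23 and 6.97 in day 2 BP14 cells. In both pairs the lower array was the one with the lower Gapdh 5′ signal.

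In PRC2 the core enzyme held steady while the accessory subunit Jarid2 moved. Ezh2, the main H3K27 methyltransferase, had group means from 11.06 to 11.74, with log2 changes of -0.67 (SE 0.17, adjusted p 0.00603) in 48 h EpiLCs against ESCs and of 0.55 (SE 0.17, adjusted p 0.0166) in day 6 Ck-PGCLCs against EpiLCs, both under 2-fold. Ezh1, its less active relative, ranged from 8.14 to 9.13. Eed, the subunit that reads the mark, stood at 12.04 and 11.92 in BP14A ESCs and 11.18 and 10.99 in 36 h EpiLCs (log2 change -0.89, SE 0.15, adjusted p 0.000171), and its log2 change was -0.94 (adjusted p 0.000103) in the earlier arrays. Both were just under 2-fold, and they were the largest Eed differences of the 17 comparisons.

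Jarid2, which helps to bring PRC2 to chromatin and has no demethylase activity of its own, differed between the routes on day 2. It read 10.48 and 10.62 in 36 h EpiLCs. Without factors it was lower, at 9.68 and 9.56 in the parental clone with Dox and at 9.55 and 9.35 in day 2 Ck-PGCLCs. With factors it was higher, at 11.41 on both day 2 BP14A arrays and at 11.37 and 11.46 with Prdm14 alone. The P14A arrays, at 11.51 and 11.36, and the BP14 arrays, at 11.11 and 11.43, lay in the same span, so every line with the Prdm14 transgene was above every control array. The log2 change from the parental control was 1.79 (SE 0.17, 3.46-fold, adjusted p 2.05e-07) with 3 factors and 1.8 (SE 0.17, adjusted p 2.37e-07) with Prdm14 alone. BP14A cells exceeded Ck-PGCLCs of day 2 by 1.97 (SE 0.17, 3.91-fold, adjusted p 7.52e-08).

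By day 4 the routes stood at like levels. Jarid2 stood at 11.25 and 11.08 in day 4 Ck-PGCLCs, a rise of 1.72 from day 2 (SE 0.17, 3.29-fold, adjusted p 6.22e-07), and at 11.06 and 11.13 in day 4 BP14A cells, where the routes overlapped. Day 6 Ck-PGCLCs, both at 11.64, were above 48 h EpiLCs at 10.48 and 10.51 (log2 change 1.14, SE 0.17, adjusted p 4.35e-05). Embryo PGCs, at 11.05 and 11.25, were above epiblast at 10.46 and 10.38, with a log2 change of 0.73 (SE 0.17, adjusted p 0.00358) that was under 2-fold. The low groups were the 2 in which the streak and mesoderm markers were high, and whether those cells account for it was not tested. The fall from EpiLCs on day 2 of the cytokine route (log2 change -1.11, SE 0.17, adjusted p 7.97e-05) was -0.96 in the deposited values before quantile normalization. The 3 Jarid2 probe sets gave the same sign in all 6 of its calls.

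Suz12, the scaffold subunit that holds PRC2 together, varied more between duplicates. It read 9.12 and 8.54 in the parental clone with Dox, 10.4 and 9.65 in day 2 BP14A cells and 10.28 and 9.97 with Prdm14 alone. The factor groups lay above the control without overlap, with log2 changes of 1.19 (SE 0.4, adjusted p 0.0368) and 1.29 (SE 0.4, adjusted p 0.0252). With the mean of its 6 probe sets they were 0.88 and 0.84, with adjusted p-values in limma of 0.222 and 0.258. With the compared groups fitted alone in limma the first had an adjusted p of 0.0911. Both calls depended on single arrays: the first was 0.82 without the first BP14A array and 0.91 without the second control array, and the second was 1.14 (adjusted p 0.163), 1.45 (adjusted p 0.056) and 1 (adjusted p 0.213) without the first P14, the second P14 and the second control array. In 48 h EpiLCs Suz12 fell to 8.85 and 8.82 from 10.4 and 11.43 in the earlier ESCs (log2 change -2.08, SE 0.4, 4.23-fold, adjusted p 0.000637). The new arrays gave 9.96 and 9.42 in EpiLCs against 10.62 and 10.78 in ESCs, which did not pass. Day 6 Ck-PGCLCs, at 9.4 and 10.67, gave a log2 change of 1.2 from EpiLCs (SE 0.4, adjusted p 0.0275) that was 0.57 (adjusted p 0.406) without the second day 6 array, and 1.22 (adjusted p 0.0888) and 1.18 (adjusted p 0.0935) without the first and the second EpiLC array.

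**Figure D2:**
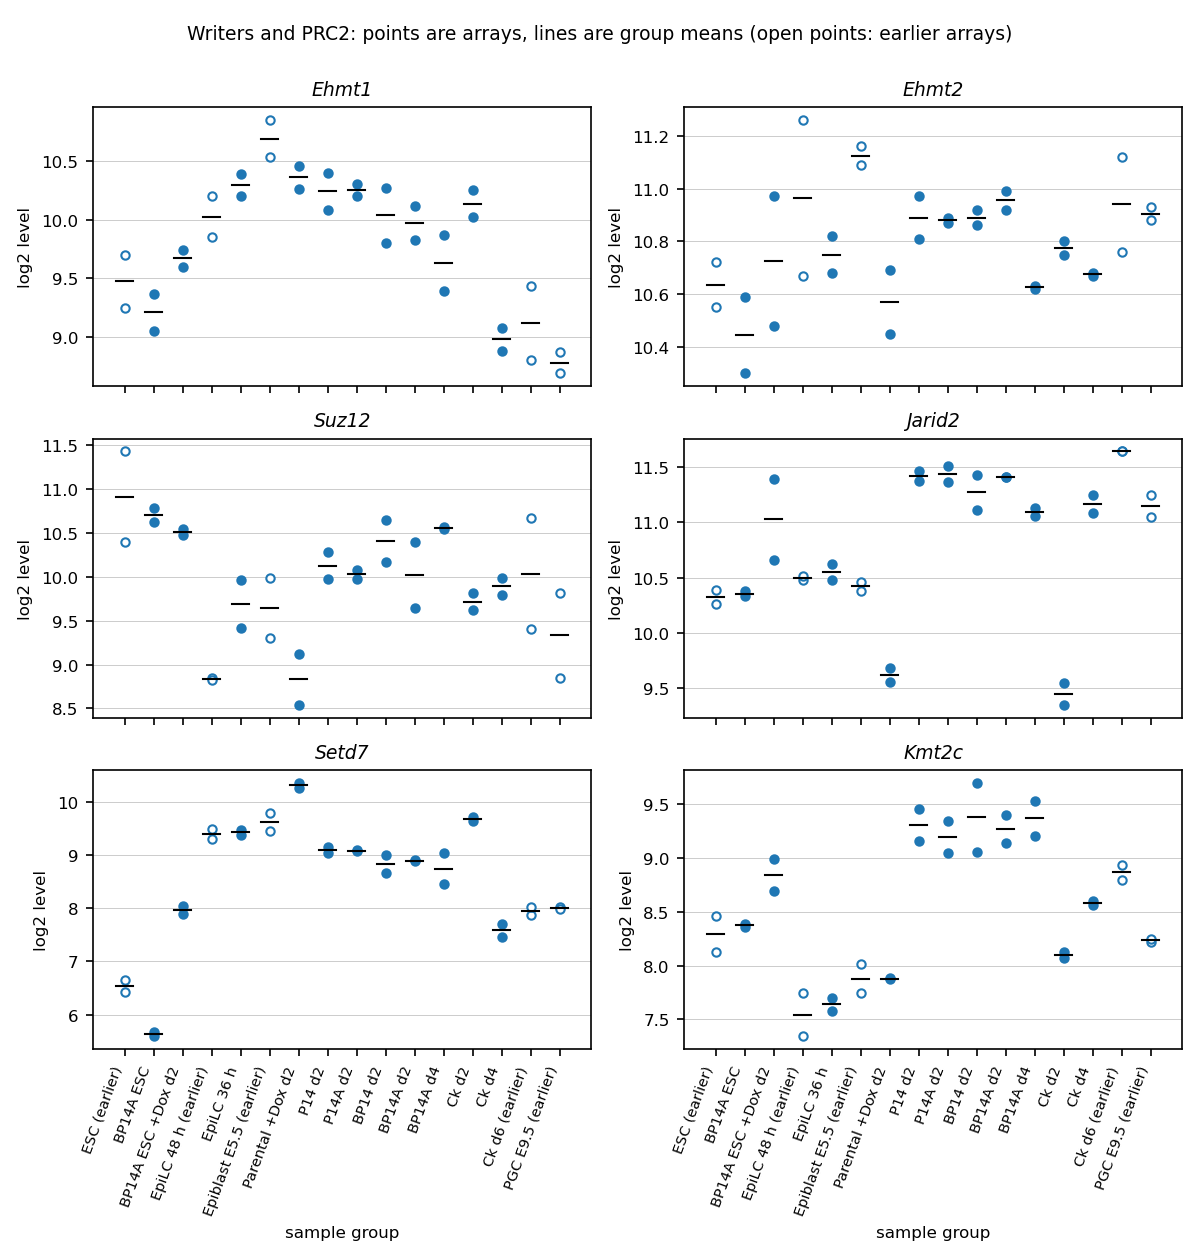
Points are the log2 levels of single arrays for 6 writers and PRC2 subunits in the 16 groups, and horizontal bars are group means of 2 arrays. Jarid2 lies at 9.35 to 9.68 in the parental control and day 2 Ck-PGCLCs and at 11.11 to 11.51 in the day 2 TF-PGCLCs, while Ehmt2 lies near 10.3 to 11.26 throughout.

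Of the H3K4 writers Setd7 had the widest range of any tested member. This enzyme adds a single methyl group to H3K4 and also modifies non-histone proteins. It read 5.59 and 5.67 in BP14A ESCs and 9.39 and 9.48 in 36 h EpiLCs, a log2 change of 3.81 (SE 0.17, 14-fold, adjusted p 1.1e-11). The earlier arrays gave 6.42 and 6.66 in ESCs and 9.3 and 9.5 in 48 h EpiLCs, a log2 change of 2.86 (SE 0.17, 7.28-fold, adjusted p 5.97e-10). Setd7 was thus low in both ESC groups and high in both EpiLC groups, and epiblast, at 9.45 and 9.8, was close to the EpiLCs.

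Setd7 then fell again in the germ cell groups. The cytokine route stood at 9.72 and 9.64 on day 2 and at 7.47 and 7.71 on day 4, a log2 change of -2.09 (SE 0.17, 4.26-fold, adjusted p 4.98e-08), and against EpiLCs the change was -1.85 (SE 0.17, adjusted p 1.22e-07). Day 6 Ck-PGCLCs, at 7.88 and 8.02, were 2.74-fold below 48 h EpiLCs (log2 change -1.45, SE 0.17, adjusted p 2.21e-06). Embryo PGCs, at 8.03 and 7.99, were 3.07-fold below epiblast (log2 change -1.62, SE 0.17, adjusted p 6.7e-07). These 3 germ cell groups lay between the ESC and the EpiLC levels without overlap.

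With the factors Setd7 was also below the parental control. BP14A cells read 8.91 and 8.89 on day 2 and 8.45 and 9.04 on day 4, and the P14 cells 9.16 and 9.05. The parental control, at 10.27 and 10.36, was the highest group, so the factor groups were lower by 2.66-fold (log2 change -1.41, SE 0.17, adjusted p 3.89e-06) and by 2.31-fold (log2 change -1.21, SE 0.17, adjusted p 2.81e-05; -0.92 with the mean of both probe sets). Against EpiLCs the change in BP14A cells stayed under 2-fold on both days (-0.53 and -0.69). On day 2 BP14A cells differed from Ck-PGCLCs by -0.78 (adjusted p 0.00245), also under 2-fold. On day 4 Setd7 was 2.23-fold higher in BP14A cells than in Ck-PGCLCs (log2 change 1.15, SE 0.17, adjusted p 0.000205), a call lost without the second BP14A array (0.86), with the mean of both probe sets (0.97) and with the compared groups fitted alone (adjusted p 0.0822). In the sorted ESCs with Dox Setd7 read 8.04 and 7.89, against 5.59 and 5.67 in BP14A ESCs (log2 change 2.34, SE 0.17, 5.05-fold, adjusted p 2.68e-08). That was about the level of the embryo PGCs.

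Kmt2c, which monomethylates H3K4 at enhancers, was high in the TF-PGCLCs. It read 7.7 and 7.58 in 36 h EpiLCs, 7.87 and 7.88 in the parental control and 9.4 and 9.14 in day 2 BP14A cells. The other day 2 factor lines were alike, from 9.05 to 9.7, and no factor array overlapped a control or EpiLC array. The log2 change from EpiLCs was 1.63 (SE 0.2, 3.1-fold, adjusted p 6.55e-06) on day 2 and 1.73 (SE 0.2, adjusted p 3.03e-06) on day 4. From the control it was 1.4 (SE 0.2, adjusted p 2.89e-05) with 3 factors and 1.44 (SE 0.2, adjusted p 2.22e-05) with Prdm14 alone.

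The cytokine route gave smaller Kmt2c differences at the matched times. Day 2 Ck-PGCLCs read 8.13 and 8.07, so that BP14A cells were 2.25-fold higher (log2 change 1.17, SE 0.2, adjusted p 0.000221). Day 4 Ck-PGCLCs, at 8.56 and 8.6, differed from EpiLCs by 0.94 (adjusted p 0.00133), under 2-fold. Day 6 cells, at 8.94 and 8.8, were above 48 h EpiLCs at 7.74 and 7.34 (log2 change 1.33, SE 0.2, adjusted p 4.01e-05), while embryo PGCs at 8.22 and 8.25 differed from epiblast at 7.74 and 8.01 by 0.36 (adjusted p 0.224). Dox in ESCs gave 8.99 and 8.69 against 8.39 and 8.36, a difference of 0.47 that did not pass. Kmt2c has 4 probe sets, of which the brighter pair moved alike. The mean of all 4 gave less than 2-fold in 5 of the 6 calls, such as 0.83 for day 2 BP14A cells against EpiLCs.

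The other H3K4 writers were called nowhere. Kmt2d, the enhancer enzyme most like Kmt2c, had group means from 7.79 in day 6 Ck-PGCLCs to 9.08 in BP14A ESCs. Kmt2a and Kmt2b, the MLL enzymes found at promoters, ranged over 1.09 and 0.81, and Setd1b, a source of trimethyl H3K4, over 1.14. Setd1a, which has the same activity, ranged over 0.30 at group means of 13.12 to 13.42. Its second probe set, dimmer at a mean of 9.21, moved more in some comparisons. Between the routes on day 4 it gave -0.58, against -0.03 with the one used.

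Smyd2 was the one writer of the H3K36 and H3K79 group to change, and it was higher in all 5 of its calls. It methylates H3K36 and several non-histone proteins, p53 among them. It read 10.1 and 10.19 in 36 h EpiLCs, 11.31 and 11.68 in day 2 BP14A cells and 11.54 and 11.6 in day 4 Ck-PGCLCs. Both germ cell groups lay above the EpiLCs without overlap, with log2 changes of 1.35 (SE 0.2, adjusted p 5.26e-05) and 1.42 (SE 0.2, adjusted p 1.73e-05). Day 4 BP14A cells, at 11.2 and 11.39, gave 1.15 (SE 0.2, adjusted p 0.000249). The widest gap was in the embryo, from 9.55 and 9.21 in epiblast to 11.47 and 11.28 in PGCs (log2 change 1.99, SE 0.2, 3.98-fold, adjusted p 2.74e-07). Against the parental control, at 10.15 and 10.74, the day 2 BP14A change was 1.06 (SE 0.2, adjusted p 0.000493), but 0.87 without the second BP14A array and 0.76 without the first control array.

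Setd2, the writer of H3K36 trimethylation, ranged over 0.69 and Dot1l, the H3K79 methyltransferase, over 1.11, with no call. Nsd1, which dimethylates H3K36, had no call and was low on the arrays of low Gapdh difference. It read 7.01 and 7.72 on the day 4 BP14A arrays, 6.56 against 9.8 on the BP14 arrays, 7.51 against 10.17 in 36 h EpiLCs, 8.72 against 10.01 in BP14A ESCs and 7.68 against 9.31 in ESCs with Dox. In each of these groups the low arrays were among the 6 with a Gapdh 5′ signal far below the 3′ signal, whose part in the Nsd1 values was not tested. Arrays above that limit also read low, with 8.47 and 8.15 in day 6 Ck-PGCLCs and 8.69 on the second day 4 Ck array. Its difference of -1.48 between day 4 BP14A cells and EpiLCs (SE 0.84) did not pass, and a second, dimmer probe set gave -0.15.

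**Figure D3:**
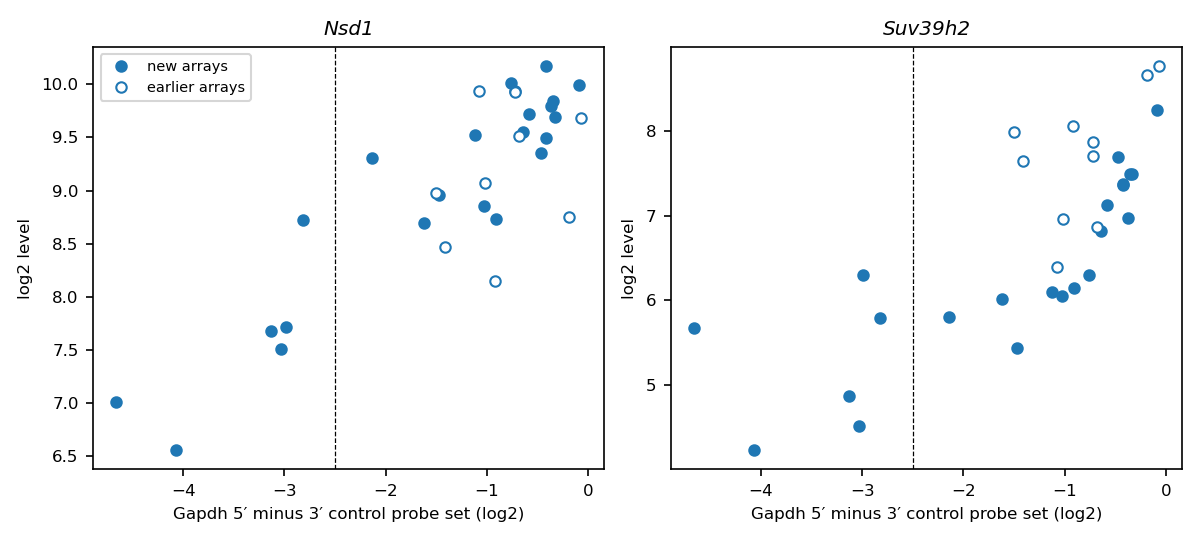
Log2 levels of Nsd1 and Suv39h2 on the 32 arrays are plotted against the Gapdh 5′ minus 3′ difference on the log2 scale, with a dashed line at -2.5. The 6 arrays left of the line have Nsd1 levels of 6.56 to 8.72 and Suv39h2 levels of 4.23 to 6.3.

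The H4K20 writers were measured under their newer symbols. Kmt5b, formerly Suv420h1, which makes di- and trimethyl H4K20, had group means from 6.42 in day 2 Ck-PGCLCs to 8.58 in 36 h EpiLCs. It rose on the step from ESCs to EpiLCs in both sets of arrays (log2 changes 1.27 and 1.14) and fell from EpiLCs in the aggregates, by 1.94 in the parental control, by 2.17 and 1.06 in Ck-PGCLCs on days 2 and 4 and by 1.15 in day 2 BP14A cells. It rose by 1.11 from day 2 to day 4 of the cytokine route and by 1.11 with Dox in ESCs, and on day 2 BP14A cells were above Ck-PGCLCs by 1.02. Kmt5a, formerly Setd8, the monomethyl enzyme, fell by 1.08 in day 6 Ck-PGCLCs against EpiLCs. Kmt5c, formerly Suv420h2, had no call.

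Among the erasers the H3K9 demethylases Kdm3a and Kdm3b changed most often. Both remove mono- and dimethyl groups, the products of the Ehmt1 and Ehmt2 pair, and Kdm3a is known for its part in male germ cells. Kdm3a read 11.54 and 11.44 in BP14A ESCs and 9.69 and 9.06 in 36 h EpiLCs, a log2 change of -2.12 (SE 0.29, 4.34-fold, adjusted p 1.39e-05). The earlier arrays gave 10.76 and 11.33 in ESCs and 8.7 and 8.94 in 48 h EpiLCs, a log2 change of -2.22 (SE 0.29, 4.66-fold, adjusted p 9.23e-06). Both ESC groups lay above both EpiLC groups without overlap.

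In the germ cell groups Kdm3a was higher again. The day 2 BP14A arrays read 10.87 and 10.27 and the P14 arrays 10.84 and 10.64, against 9.29 and 8.96 in the parental control. The log2 change was 1.45 with 3 factors (SE 0.29, 2.73-fold, adjusted p 0.000837) and 1.61 with Prdm14 alone (SE 0.29, 3.06-fold, adjusted p 0.000312). The P14A arrays, at 10.66 and 10.69, and the BP14 arrays, at 11.16 and 10.63, lay at the same height, so none of the 8 day 2 factor arrays overlapped the control. Day 6 Ck-PGCLCs, at 10.15 and 10.8, were above 48 h EpiLCs by 1.66 (SE 0.29, 3.15-fold, adjusted p 0.000167).

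Other Kdm3a rises were close to 2-fold and did not pass in some fits that leave out 1 array. Against 36 h EpiLCs the log2 change was 1.03 in day 4 Ck-PGCLCs (10.34 and 10.47; SE 0.29, adjusted p 0.0109), 1.19 in day 2 BP14A cells (adjusted p 0.0053) and 1.22 in day 4 BP14A cells (10.67 and 10.52; adjusted p 0.00374). Without the second EpiLC array, at 9.06, these were 0.71, 0.87 and 0.90, all under 2-fold. The EpiLC array left in those fits, at 9.69, is the one of low Gapdh difference (-3.03, against -0.42 on the second). Over all alternatives the highest values were 1.35, 1.51 and 1.54. The day 4 Ck change was also under 2-fold without the second day 4 Ck array (0.96), and the day 2 BP14A change without the first day 2 BP14A array (0.90). In the embryo, PGCs at 10.25 and 10.88 against epiblast at 9.24 and 9.84 gave 1.02 (SE 0.29, adjusted p 0.0113), and 0.72 and 0.71 without the first epiblast and the second PGC array. Every one of these values was positive.

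Kdm3b was also low in EpiLCs. It read 9.9 and 9.93 in BP14A ESCs, 8.27 and 8.78 in 36 h EpiLCs and 10.1 and 10.3 in day 4 Ck-PGCLCs. The log2 change was -1.39 (SE 0.28, adjusted p 0.000727) from ESCs to EpiLCs and 1.67 (SE 0.28, 3.19-fold, adjusted p 1e-04) from EpiLCs to day 4 Ck-PGCLCs. Day 4 BP14A cells, at 9.72 and 9.97, were also above EpiLCs (log2 change 1.32, SE 0.28, adjusted p 0.0013). Day 6 Ck-PGCLCs, at 9.82 and 10.04, were above 48 h EpiLCs, at 8.67 and 8.37, by 1.4 (SE 0.28, adjusted p 0.00053). The PGC and epiblast arrays, 9.52 and 10.1 against 8.78 and 8.81, gave 1.01 (SE 0.28, adjusted p 0.00862), and 0.72 without the second PGC array. A second, dimmer Kdm3b probe set gave positive values in all 4 of these rises, from 1.07 in the embryo to 1.62 in day 6 Ck-PGCLCs. It differed in sign from the brighter one in the parental control against EpiLCs (-1.12 and 0.44), in day 2 Ck-PGCLCs against EpiLCs (-0.73 and 0.69) and with Dox in ESCs (0.85 and -0.64).

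Kdm4c, a demethylase of trimethyl H3K9 and H3K36, was lower in the aggregates without factors than in EpiLCs, and less so in BP14A cells. It read 9.72 and 9.87 in 36 h EpiLCs, 8.66 and 8.53 in the parental control, 8.21 and 8.17 in day 2 Ck-PGCLCs and 8.59 and 8.76 in day 4 Ck-PGCLCs. All 3 aggregate groups lay below the EpiLCs without overlap, with log2 changes of -1.2 (SE 0.21, adjusted p 0.000296), -1.61 (SE 0.21, 3.05-fold, adjusted p 1.04e-05) and -1.12 (SE 0.21, adjusted p 0.000417). The third was -0.95 in the deposited values. Day 2 BP14A cells, at 9.14 and 9.3, were higher than day 2 Ck-PGCLCs (log2 change 1.03, SE 0.21, adjusted p 0.00122), and 0.95 without the second BP14A array. On day 4 BP14A cells, at 8.98 and 9.21, differed from Ck-PGCLCs by 0.42, which was not called. Against EpiLCs the BP14A differences were -0.58 on day 2 and -0.7 on day 4, under 2-fold. Embryo PGCs differed from epiblast by -0.96 (adjusted p 0.00188), under 2-fold.

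Phf8, which demethylates H3K9 and H4K20, was lower by less than 2-fold in several germ cell groups. It read 7.89 and 7.64 in 36 h EpiLCs, 7.34 and 7.2 in day 2 BP14A cells and 6.83 and 6.87 in day 4 BP14A cells, with log2 differences of -0.49 (adjusted p 0.011) and -0.92 (adjusted p 3.52e-05). Kdm4b, like Kdm4c an eraser of H3K9 trimethylation, differed by -0.99 (adjusted p 0.00582) between 36 h EpiLCs and BP14A ESCs and passed in no other comparison. Kdm4a, of the same family, was below the filter in every group.

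Of the H3K4 erasers Kdm5b was lower in late germ cells. Kdm5b removes trimethyl and dimethyl groups from H3K4. It read 9.43 and 9.73 in 48 h EpiLCs and 7.9 and 8.42 in day 6 Ck-PGCLCs (log2 change -1.42, SE 0.23, 2.67-fold, adjusted p 8.95e-05). It read 9.92 and 10.43 in epiblast and 8.21 and 8.69 in PGCs (log2 change -1.72, SE 0.23, 3.3-fold, adjusted p 1.14e-05). Day 4 BP14A cells, at 8.45 and 8.46, were below 36 h EpiLCs at 9.57 and 9.49 (log2 change -1.07, SE 0.23, adjusted p 0.00184), a change of -0.85 under median centring. The mean of its 4 probe sets gave -0.62, -1 and -0.58 for these comparisons, with adjusted p-values in limma of 0.0698, 0.00507 and 0.109. The embryo change thus passed the adjusted p and fell just short of 2-fold, and the others did not pass.

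Kdm5a, the close relative of Kdm5b, ranged over 0.66. Kdm1a, LSD1, the flavin-dependent eraser of mono- and dimethyl H3K4, was called in no comparison between groups. It was highest in day 4 BP14A cells, at 11.41 and 11.5, and read 10.53 and 10.64 on day 2. Its duplicates lay up to 10.03 against 11.2 apart in embryo PGCs.

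Among the erasers of H3K36 and H3K27 methylation 2 had a call each. Kdm2b, which removes dimethyl H3K36 and brings a Polycomb complex to CpG islands, read 10.14 and 10.5 in epiblast and 9.31 and 9.33 in PGCs (log2 change -1, SE 0.18, adjusted p 0.000292). The call sat at the 2-fold limit, with -0.99 without the first PGC array and -0.82 without the second epiblast array. Kdm6b, an H3K27 demethylase, read 7.82 and 7.17 in 48 h EpiLCs and 6.15 and 4.92 in day 6 Ck-PGCLCs (log2 change -1.96, SE 0.44, 3.89-fold, adjusted p 0.00194), and -1.34 with an adjusted p of 0.0604 without the second day 6 array. Its probe set is of a kind that can cross-hybridise, and its other 2 probe sets are dim. Kdm2a, the relative of Kdm2b, ranged from 5.94 to 6.99 with no call.

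**Figure D4:**
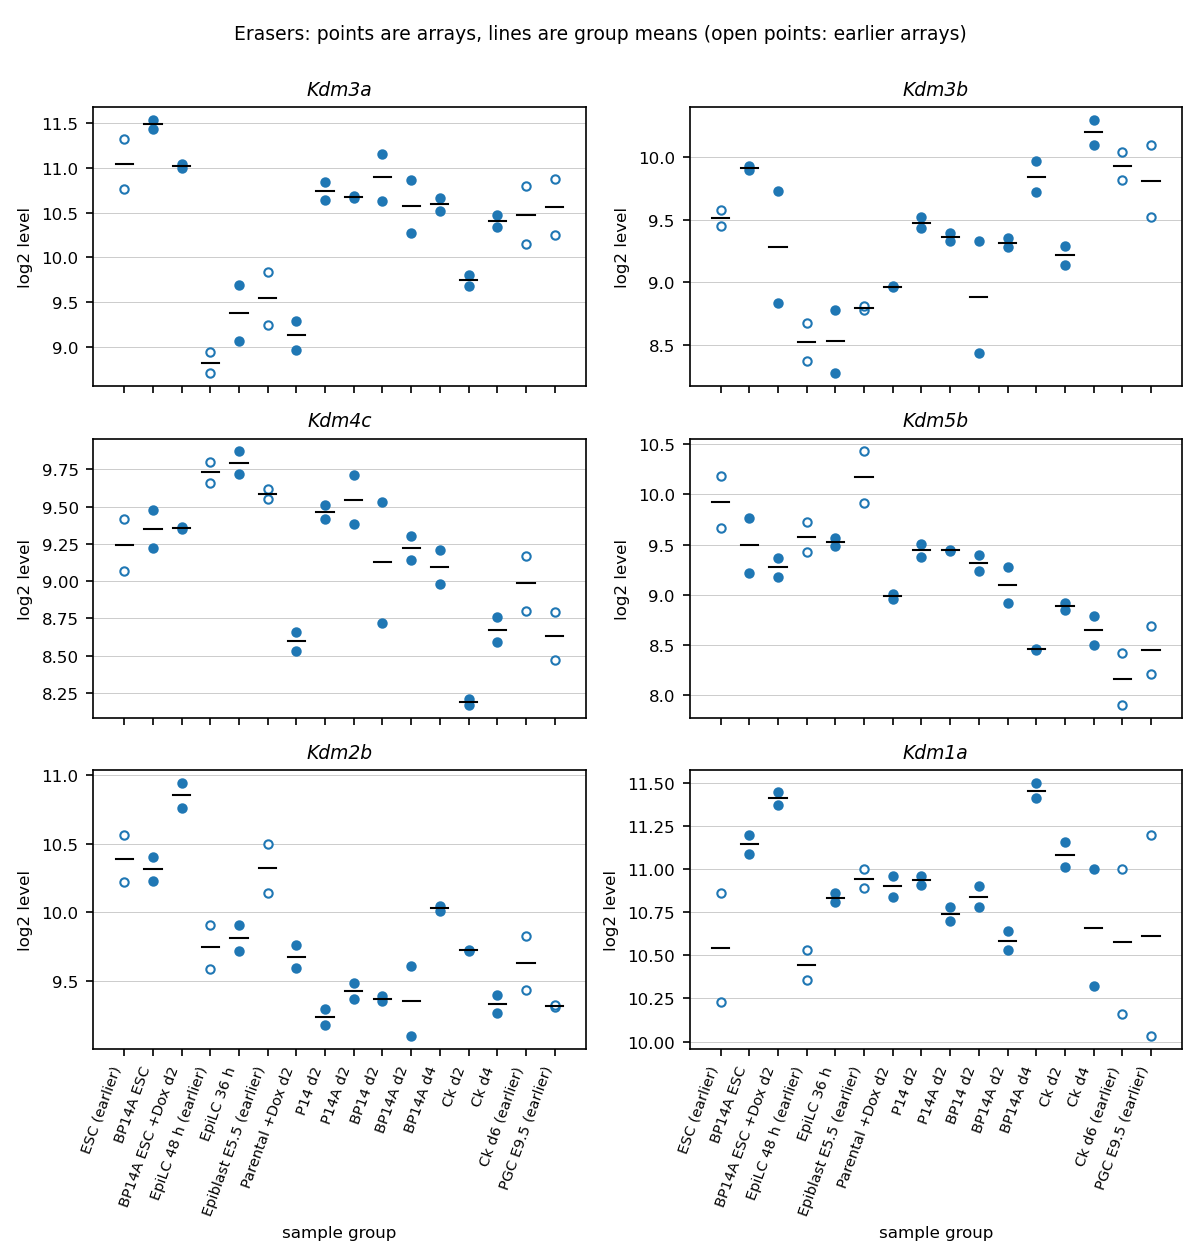
Points are the log2 levels of single arrays for 6 demethylases in the 16 groups, and horizontal bars are group means of 2 arrays. Kdm3a lies at 8.7 to 9.69 in both EpiLC groups and at 10.15 to 11.16 in the TF-PGCLCs, the day 4 and day 6 Ck-PGCLCs and the embryo PGCs.

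Both routes were also compared in how the enzymes moved between days 2 and 4, as the cytokine step minus the BP14A step. This interaction called 5 of 31 members, Jarid2 and Smyd2 positive (4.92% of all genes) and Setd7, Kdm1a and Kdm2b negative (6.92%). Jarid2 differed by 2.04 (SE 0.25, adjusted p 1.24e-05), with a step of 1.72 on the cytokine route and of -0.32 with factors, where its other probe sets gave -0.65 and 0.02. Setd7 differed by -1.93 (SE 0.25, adjusted p 1.98e-05), with steps of -2.09 and -0.16. Smyd2 differed by 1.06 (SE 0.28, adjusted p 0.0145), but by 0.87 without the second day 2 BP14A array and 0.96 without the first day 4 BP14A array. Kdm2b differed by -1.07 (SE 0.26, adjusted p 0.00706), and by -0.81 (adjusted p 0.0527) without the second day 2 BP14A array. Kdm1a differed by -1.29 (SE 0.43, adjusted p 0.048) and did not pass in 7 of the 8 fits that leave out 1 of these arrays, with values from -1.36 to -0.95. It passed without the second day 4 Ck array. The day 4 BP14A arrays carry the low Gapdh difference, and its part in these interactions was not tested.

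The enzymes' changes in culture were set beside those in the embryo. Day 6 Ck-PGCLCs against 48 h EpiLCs and embryo PGCs against epiblast share no array, and over the 31 members their log2 changes had a Pearson correlation of 0.78 and a Spearman correlation of 0.85, against a Pearson correlation of 0.69 over all genes tested. The sign was the same for 24 members, or 77.4%, against 71% of all genes. The points are genes measured on the same arrays and are not independent. Setd7, Kdm5b, Kdm3a and Kdm3b were called in the same direction in both, 50% of the 8 members called in culture and 57.1% of the 7 called in the embryo, where all genes gave 51.1% and 60.2%. Day 4 Ck-PGCLCs against 36 h EpiLCs shared Ehmt1, Setd7, Smyd2, Kdm3a and Kdm3b with the embryo comparison, 83.3% of 6 and 71.4% of 7. Over all genes those shares were 57.7% and 59.9%. In that pair the Pearson correlation was 0.88, against 0.71 over all genes, but the sign was the same for 21 members, or 67.7%, against 73.3%. Several of these Kdm3a and Kdm3b calls were near 2-fold, as given above. Day 4 and day 6 Ck-PGCLCs, each against EpiLCs, shared Setd7, Kdm3a and Kdm3b, 50% of 6 and 37.5% of 8. All genes gave 66.7% and 58.7% there.

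**Figure D5:**
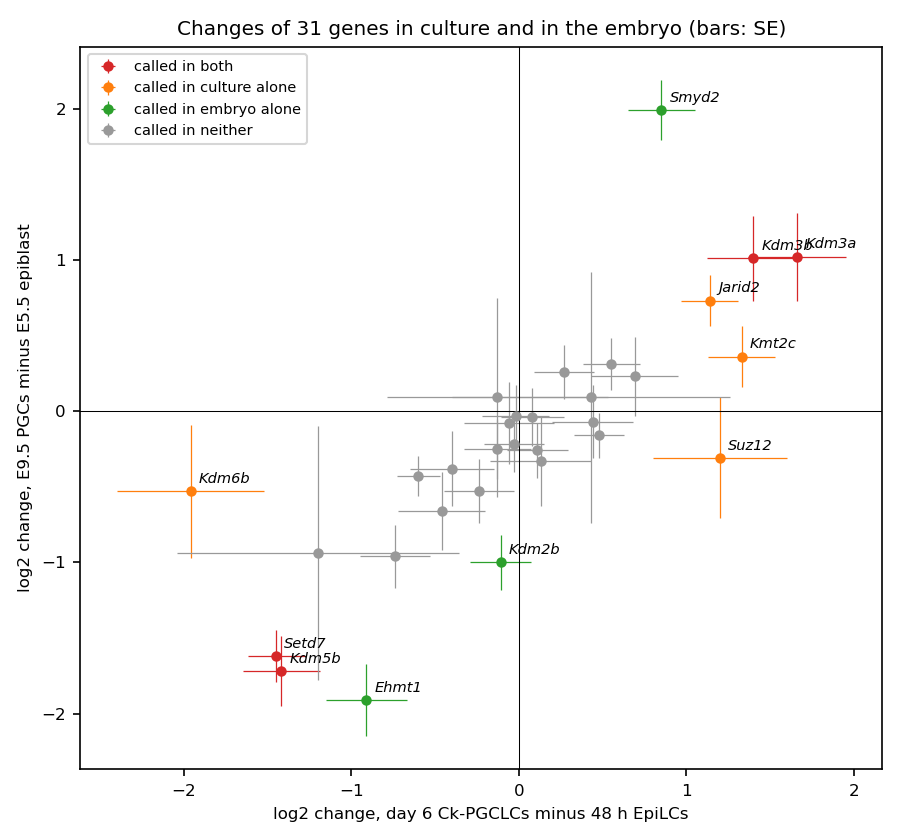
Each point is a member, with its log2 change in day 6 Ck-PGCLCs against 48 h EpiLCs on one axis and in embryo PGCs against epiblast on the other, and bars give standard errors. Kdm3a and Kdm3b lie in the upper right with changes of 1.66 and 1.4 in culture, and Setd7 and Kdm5b in the lower left with -1.45 and -1.42.

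The embryo PGC arrays held the blood markers named above, with Hba-x, an embryonic globin, at log2 levels of 12.56 and 11.44. The endoderm markers were highest on the first epiblast array after those of the parental clone. The part of such cells in the embryo values was not tested.

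The proteins that work with these enzymes added 1 large change. Of 32 partner subunits tested, Phf19, a PRC2 accessory subunit that reads H3K36 methylation, changed the most on the log2 scale. It read 5.91 and 5.61 in 36 h EpiLCs, 5.26 and 5.82 in the parental control and 9.64 and 9.24 in day 2 BP14A cells. Its log2 change from EpiLCs was 3.68 (SE 0.22, adjusted p 7.71e-10) and with Prdm14 alone it was 3.8 over the control. On the cytokine route it read 5.83 and 5.7 on day 2 and 8.83 and 8.75 on day 4, so that the interaction of the day 2 to day 4 step was 3.16 (SE 0.32, adjusted p 1.62e-06). The sorted ESCs with Dox were above BP14A ESCs by 3.05, and embryo PGCs were above epiblast by 4.03. Phf19 was thus low in all arrays of ESCs without Dox, EpiLCs, epiblast, parental control and day 2 Ck-PGCLCs, at 5.24 to 6.82. It was high in all others, at 8.43 to 9.87.

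Other partners changed in fewer comparisons. Mtf2, a further PRC2 accessory subunit, fell by 1.26 in 48 h EpiLCs against ESCs. Phf1, of the same kind, was lower in day 4 BP14A cells than in day 4 Ck-PGCLCs (log2 change -1.67, SE 0.39, adjusted p 0.00841). It was dim on those BP14A arrays, at 5.14 and 4.51. Both have the low Gapdh difference, whose part in this change was not tested. Ncoa6, a subunit of the Kmt2c and Kmt2d complexes, fell by 1.17 in 36 h EpiLCs against ESCs and by 1.15 with Dox in ESCs. Phf21a, a partner of Kdm1a, rose by 1.59 with Dox in ESCs and was lower in day 6 Ck-PGCLCs than in embryo PGCs (log2 change -1.43). Cbx3, which binds methylated H3K9, was 2.54 higher in 48 h EpiLCs, at 5.34 and 7.61, than in the earlier ESCs, and 1.40 higher without the second EpiLC array. Those ESCs, at 3.83 and 4.04, lay below the filter level of 4.05. In the new arrays the Cbx3 group means were 7 in 36 h EpiLCs and 7.05 in BP14A ESCs. It was 2.3 higher in day 6 Ck-PGCLCs than in embryo PGCs and lower with Prdm14 alone than in the control (log2 change -2.01, SE 0.53, adjusted p 0.00938). The P14 arrays, at 3.88 and 4.28, were near the filter level. The other lines with the Prdm14 transgene were not lower, with Cbx3 group means of 7.58 in BP14A, 7.1 in BP14 and 6.61 in P14A cells against 6.09 in the control.

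Of 25 further lysine methylation enzymes tested, Nsd2, a writer of H3K36 dimethylation, was higher in every aggregate group set against EpiLCs. It read 8.16 and 7.5 in 36 h EpiLCs, 9.65 and 9.73 in the parental control, 9.44 and 9.13 in day 2 Ck-PGCLCs and 9.62 and 9.22 in day 2 BP14A cells. The log2 changes were 1.86, 1.45 and 1.59, so the rise was also present without factors or cytokines, and embryo PGCs were 1.8 above epiblast. Jmjd1c, a relative of Kdm3a and Kdm3b, was lower in day 4 and day 6 Ck-PGCLCs than in EpiLCs (log2 changes -1.59 and -1.06) and in embryo PGCs than in epiblast (-1.38). Without the first day 6 array the second value was -0.71. It was not called with the factors, with group means of 10.37 and 10.27 in BP14A cells on days 2 and 4 against 11.12 in EpiLCs and 10.61 in the parental control. Phf2, an H3K9 demethylase, was higher in the parental control and in day 2 Ck-PGCLCs than in EpiLCs (log2 changes 1.17 and 1.18), the groups in which Jarid2 was low. Day 2 BP14A cells were lower in Phf2 than both, each by -1.74 on the log2 scale. Riox2 rose (1.1 and 1.25) and Smyd3 fell (-1.22 and -1.53) on both steps from ESCs to EpiLCs.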

How the data were processed

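The deposited values are log2 expression levels per probe set of a mouse Affymetrix array, with array medians from 4.62 to 4.78. The algorithm by which the authors made them is not given in the sources used here. Because the medians spanned more than 0.1, the values were quantile normalized. After 64 control probe sets were left out of 45101, 34945 had 1 gene symbol, 932 several and 9160 none. The probe set with the highest mean stood for a gene, and testing required that the highest of its 16 group means be no lower than the 40th percentile, a log2 level of 4.05. A mean was fitted for each of the 16 groups to all 32 arrays (limma 3.58.1 in R 4.3.3, lmFit and eBayes, 16 residual degrees of freedom, two-sided), with p-values adjusted by Benjamini-Hochberg over all genes tested; the fit was tested on simulated data. The precision is limited by 2 arrays per group. The members and lists were chosen with earlier results of these data known. Members called in a comparison were named, at most the 6 largest rises and falls; Ehmt1, Ehmt2, Ezh2, Eed, Suz12, Kdm1a and Kdm6b were followed throughout. Of the further lists up to 2 rises and 2 falls per comparison were eligible. Phf8, Kdm4b, Nsd1 and Suv39h2 were described after their values were seen, and Kmt5a, Kmt5b and Kmt5c as renamed members.

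No pair of duplicates was identical, and their correlations over the genes tested, after normalization, ran from 0.966 to 0.986. Alternatives were the deposited values, median centring, other filters, the mean of a gene's probe sets, no fold limit, a fit of the compared groups alone, a replicate block, omission of each array and omission of the arrays of low Gapdh difference.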

Additional observations from a re-analysis of the deposited data

Results flagged for a closer look

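The step from day 2 to day 4 differed between the cytokine and the BP14A route in 5 members, by the test of the difference itself in limma. The cytokine step minus the BP14A step was 2.04 on the log2 scale in Jarid2, 1.06 in Smyd2, -1.93 in Setd7, -1.29 in Kdm1a and -1.07 in Kdm2b. Jarid2 and Setd7 were called under every alternative run.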

How the results depend on the processing

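Direction was kept by every member call under every alternative run, and 35 of the 63 calls, interactions included, also kept their side of the threshold in all. Counts of members called moved by more than 1.5 times in 33 of 262 alternatives. Without the 2-fold limit the counts were 8 (36 h EpiLCs against BP14A ESCs), 4 (parental control against EpiLCs), 4 (day 2 Ck), 10 (day 4 Ck), 6 (day 4 against day 2 Ck), 6 (day 2 BP14A against EpiLCs), 10 (day 4 BP14A against EpiLCs), 10 (P14 against control), 7 and 4 (the routes on days 2 and 4), 4 (Dox in ESCs), 9 (48 h EpiLCs), 15 (day 6 Ck against EpiLCs) and 2 (day 6 Ck against PGCs). The deposited values gave 2, 1 and 5 for the parental control, day 2 Ck-PGCLCs and 48 h EpiLCs, and median centring gave 2 for the parental control. The mean of all probe sets gave 2 for P14 against control, 3 for the interaction of routes and 0 for the routes on day 4, where limma had 6 members and 24.2% of all genes at an unadjusted p under 0.05. A fit of the compared groups alone gave 0 for the routes on day 4 and 4 for embryo PGCs. Without the arrays of low Gapdh difference the counts were 2 for the parental control and 2 for Dox in ESCs, and comparisons with day 4 BP14A cells had no value.

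With each array left out in turn, the counts ran from 2 to 6 for the interaction of routes (2 without the second day 2 and 3 without the first day 4 BP14A array), from 0 to 1 for the routes on day 4 (0 without the second BP14A array), from 1 to 2 for the parental control (2 without either EpiLC array), from 1 to 2 for Dox in ESCs (2 without either Dox array) and from 3 to 5 for 48 h EpiLCs (5 without the first EpiLC array). Deviations of same-numbered arrays correlated at -0.09 to 0.46 over 17 comparisons, over 0.1 in 10 of them and at 0.27 to 0.46 in the 4 among the earlier arrays, and the numbers were not taken to pair the arrays. The replicate block left every count as it was, such as 8 for day 6 Ck-PGCLCs against EpiLCs. The cause of these moves was not tested.

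Scaling moved the median of all genes by up to 0.12 on the log2 scale, from -0.04 to 0.08 in day 2 Ck-PGCLCs against EpiLCs with the deposited values, where the share of higher calls among all genes went from 58.2% to 69.5%. That share went from 65.3% to 77.4% between days 4 and 2 of BP14A with the deposited values, and from 57.9% to 68.7% for day 4 BP14A against EpiLCs with median centring. With 2 arrays per group, changes near 2-fold and dim probe sets are the least certain.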
